A study of Saccharomyces cerevisiae with 44 samples.

Results

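2 yeast strains that both lack THO2 were compared through their total RNA. One carried a protein A tag on Cbp80 (Cbp80-PrA tho2Δ) and the other carried no such tag (no tag tho2Δ). The libraries were chosen by strain and by RNA source, and they were 3 biological replicates of each strain, so 6 of the 30 libraries of the study. Sequencing runs are listed apart in the labels, and by that count they were 10 of 44 samples. The full genotypes were SNAPf-YRA1, CBP80-PPX-PrA and tho2Δ for the tagged strain, and SNAPf-YRA1 and tho2Δ for the strain without the tag. The SNAPf label on Yra1 was thus present in both, as it was in the 3 strains with intact THO2 (Cbp80-PrA, Hpr1-PrA and no tag), which served as outside points of comparison with 3 total RNA libraries each. The strains were made in the BY4741/2 background by homologous recombination, with the tag at the C terminus of Cbp80, and both tho2Δ strains carried the deletion as tho2Δ::KanMX. Whether each strain was kept as a single clone is not given in the sources used here. Cells were grown in rich medium (YPD) at 30 °C and ground while frozen. The lysate was treated with 0.2% formaldehyde, and RNA came from 7.5% of that lysate. No protein A purification stood between the lysate and these libraries, so the comparison asks how the RNA content of the 2 strains differed at the start of the pulldown experiment.

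Cbp80, the product of STO1, is the larger of the 2 cap-binding proteins of the nucleus, which hold the 5′ cap of a new mRNA the smaller being Cbc2. Tho2 is the largest subunit of the THO complex, which joins nascent mRNA during transcription and, with the helicase Sub2 and the adaptor Yra1, makes up TREX, the complex that prepares mRNA for the export receptor Mex67. In budding yeast many genes of carbohydrate storage and protein protection answer to stress through the factors Msn2 and Msn4, which bind a short promoter element called the stress response element (STRE).

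Reads were 3′-end tags carrying molecular identifiers, so that a count stands for 1 tagged RNA end. All libraries but 2 of the 15 from total RNA were run on 2 sequencers and summed, the exceptions being Cbp80-PrA tho2Δ replicate 1 and no tag tho2Δ replicate 3, and leaving both out is among the alternatives tried. The 6 libraries held between 423380 and 581824 gene counts and the 15 total RNA libraries between 423380 and 650795. Levels below are CPM, that is gene counts scaled to a common library size, after TMM scaling, and with 1 tag per RNA end they were not divided by gene length. Of 6461 genes in the table, 4792 were tested with the quasi-likelihood F test of edgeR across the 15 total RNA libraries, with Benjamini-Hochberg adjustment over all of them. A gene is called here where its log2 fold change passed 1 up or down and its adjusted p was under 0.05. Calls at an adjusted p under 0.05 whatever the fold are given as calls at any fold. Standard errors (SE) are of the fitted log2 fold change, and SDs are over 3 libraries.

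The labels were checked first. THO2 had 1, 0 and 0 counts in the Cbp80-PrA tho2Δ libraries and 0, 0 and 0 counts in the no tag tho2Δ libraries, against means of 165 CPM in Cbp80-PrA wild type and 140 CPM in no tag wild type. THO2 was therefore at or near 0 in all 6 libraries. LEU2, LYS2, MET17 and URA3, the auxotrophic markers deleted in the background, had 0 counts in all 6 libraries. HIS3, the remaining auxotrophic marker of the background, was not at 0, with 46, 35 and 52 counts in Cbp80-PrA tho2Δ, 35, 27 and 28 counts in no tag tho2Δ and between 53 and 98 counts in the Cbp80-PrA and no tag wild type libraries. Whether its 3′ tags lie outside the deleted part was not tested. The pheromone receptor gene STE2 and the a-factor exporter gene STE6, which mark MATa cells, had at least 39 and 128 counts in every library. The alpha-factor gene MF(ALPHA)1 had at most 2 counts and the a-factor receptor gene STE3 at most 5. The alpha-agglutinin gene SAG1 was an exception among the MATalpha markers, with 16, 16 and 22 counts in Cbp80-PrA tho2Δ and 24, 19 and 15 counts in no tag tho2Δ. Of 5 MATa genes tested, 0 were called and 1 was lower at any fold, where 1.46% of all genes tested were called lower and 8.35% were lower at any fold. All 5 lay below 0, with a median log2 fold change of -0.45, against 0.12 in wild type.

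STO1 itself (YMR125W, chrXIII:517539-520446 on the plus strand, R64), which carries the tag in one strain only, was measured at 135.0, 143.8 and 125.8 CPM in Cbp80-PrA tho2Δ, against 233.3, 204.4 and 244.8 CPM in no tag tho2Δ. The 2 sets of libraries did not overlap. The log2 fold change was -0.76 (SE 0.15, adjusted p 9.44e-05 by edgeR), which passed the test at any fold and stayed short of the 2-fold threshold. In wild type the same tag went with a log2 fold change of -0.10 (SE 0.14), and the difference between the backgrounds was -0.66 (edgeR interaction, adjusted p 0.0272). YRA1 had 65.8, 57.9 and 60.4 CPM in Cbp80-PrA tho2Δ and 73.1, 74.1 and 64.1 CPM in no tag tho2Δ, a difference that did not pass the test (log2 fold change -0.20, SE 0.19, adjusted p 0.577).

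Across the genome 139 genes were called higher and 70 lower in Cbp80-PrA tho2Δ than in no tag tho2Δ, which is 2.9% and 1.46% of the genes tested. At any fold 437 genes (9.12%) were higher and 400 (8.35%) lower. The median log2 fold change over all genes was -0.03. Both directions were unevenly spread over the chromosomes. Chromosome XVI, read from the second letter of the gene identifier, held 7.95% of the genes tested, and it held 123 of the 139 genes called higher and none of the 70 called lower.

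**Figure D1:**
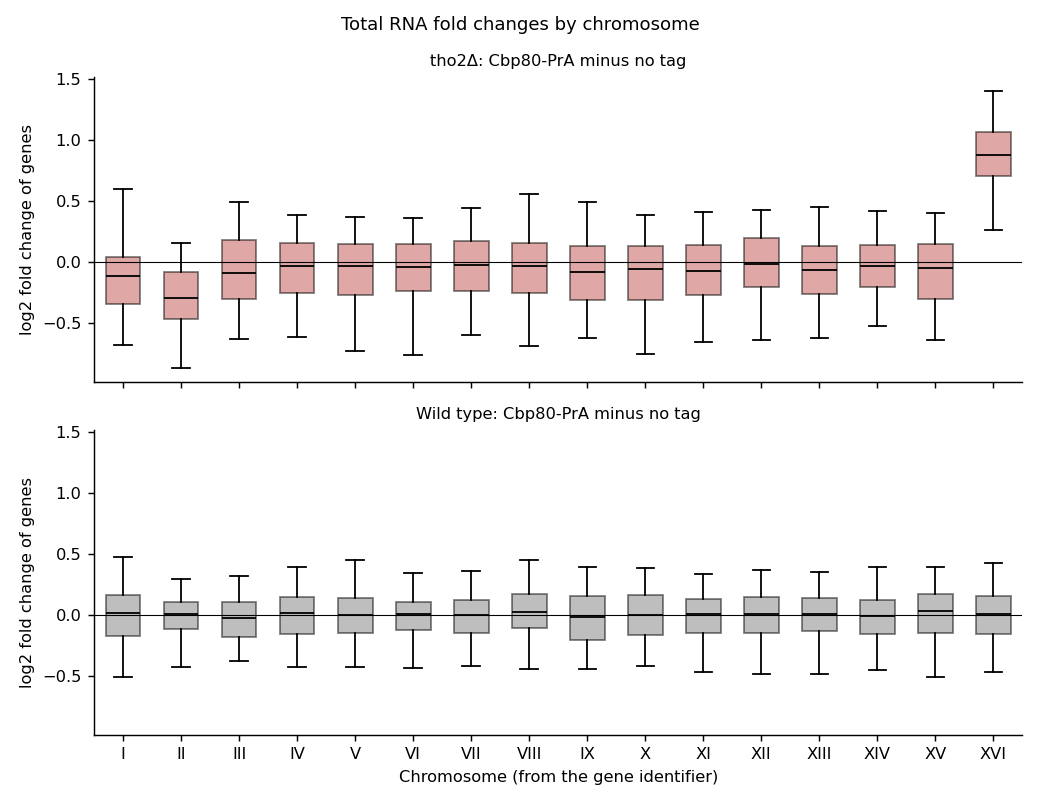
Log2 fold changes in total RNA (vertical axis) by chromosome (horizontal axis), Cbp80-PrA minus no tag, in tho2Δ (upper panel) and in wild type (lower panel). Boxes span the quartiles, the line is the median and whiskers run to the 5th and 95th percentiles. The chromosome XVI box in tho2Δ has a median of 0.87 and lies apart from the other 15, chromosome II has a median of -0.29, and no chromosome is displaced in wild type.

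The 381 tested genes of chromosome XVI had a median log2 fold change of 0.87, a 1.83-fold higher level in Cbp80-PrA tho2Δ, with quartiles of 0.71 and 1.07. Values lay above 0 for 370 of them and below 0 for 11. At any fold 314 (82.4%) passed the test as higher and 1 as lower. On 336 of the 381 the Cbp80-PrA tho2Δ libraries all lay above the no tag tho2Δ libraries, and on 3 all lay below. Over all 4792 genes the same separation was seen for 15.5% upward and 16.7% downward. The spread within the chromosome was narrow, with 330 genes (86.6%) between 0.5 and 1.5 on the log2 scale, 11 above 1.5 and 29 between 0 and 0.5.

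The position of a gene along chromosome XVI made little difference to its value. The median was 0.86 over 226 genes of the left arm and 0.90 over 155 genes of the right arm. In steps of 100 kb from the centromere, the 9 steps with at least 31 genes had medians between 0.75 and 0.97. Expression level made as little difference. When the genes were divided by mean level into 4 sets of like size, the medians of the sets ran from 0.86 to 0.90. The libraries held RNA only, and chromosome copy number in the strains was not tested.

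**Figure D2:**
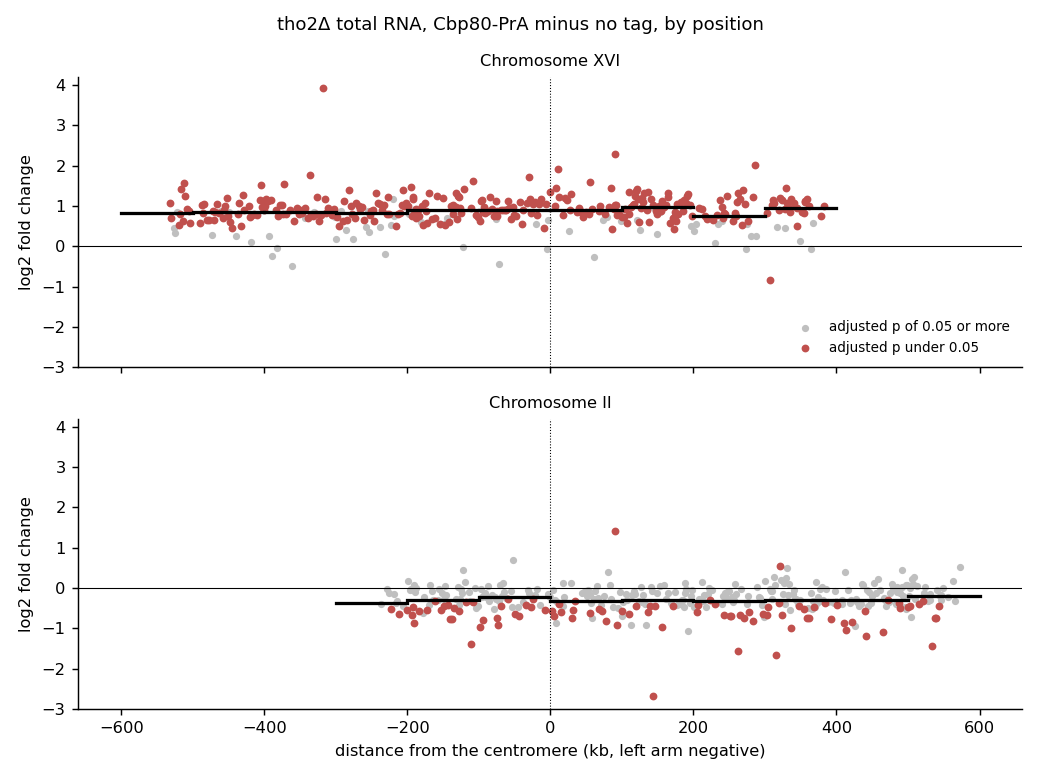
Log2 fold change in tho2Δ, Cbp80-PrA minus no tag (vertical axis), of each tested gene against its distance from the centromere in kb (horizontal axis, left arm negative), on chromosome XVI (top) and chromosome II (bottom). Red points passed at an adjusted p under 0.05, grey points did not, and black lines are medians of 100-kb steps. The steps lie between 0.75 and 0.97 on chromosome XVI where they hold at least 31 genes, and below 0 along all of chromosome II.

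Counted per library rather than per gene, chromosome XVI took 13.1%, 13.0% and 13.1% of all gene counts in the Cbp80-PrA tho2Δ libraries, against 7.19%, 7.15% and 7.25% in the no tag tho2Δ libraries. The 12 libraries other than Cbp80-PrA tho2Δ ran from 7.15% to 7.53%. The mean share was 13.1% ± 0.0900 (SD, n = 3) in Cbp80-PrA tho2Δ and 7.20% ± 0.0523 (SD, n = 3) in no tag tho2Δ, a ratio of 1.82. With 3 libraries against 3 the smallest p that the two-sided exact permutation test allows is 0.1, and that was the value. Against the other 12 libraries the exact permutation p was 0.0022, the smallest possible there, and 0.0039 after adjustment over 16 chromosomes. Those 12 come from several strains with 3 libraries each, with and without THO2, and the test treats them as exchangeable. Strains among them differed, as chromosome XII took 9.48% in no tag tho2Δ and 10.3% to 10.4% on average in each wild type strain. The p therefore describes a separation of libraries and cannot be read as a test between strains. In all, 9 of the 16 chromosomes reached that smallest p, 8 of them with a lower share. Shares of a fixed total fall when another grows, but whether this accounts for each of the 8 was not tested. With chromosome XVI left out of the total, only chromosome II was lower at the smallest p, at 0.841 of the other 12 libraries. The p does not single out chromosome XVI, whose ratio of 1.78 to the other 12 libraries was the one above 1 among the 9.

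**Figure D3:**
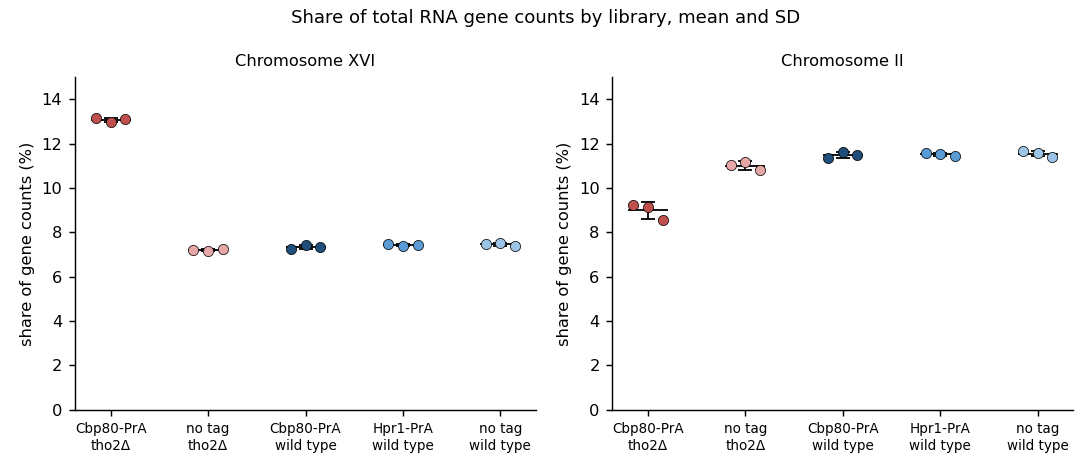
Share of all gene counts (vertical axis, percent) on chromosome XVI (left) and chromosome II (right) in each of the 15 total RNA libraries (points), by strain (horizontal axis), with the mean and SD of 3 libraries. The Cbp80-PrA tho2Δ libraries sit near 13.1% on chromosome XVI where the other 12 lie between 7.15% and 7.53%, and on chromosome II they sit between 8.56% and 9.24% where the other 12 lie between 10.8% and 11.7%.

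Of the 8 most abundant genes of chromosome XVI, 7 rose at an adjusted p under 0.05. SUI3 (YPL237W), which encodes the beta subunit of translation initiation factor eIF2, had 5004, 4963 and 4793 CPM in Cbp80-PrA tho2Δ, against 2582, 2473 and 2315 CPM in no tag tho2Δ. Its log2 fold change was 1.001 (SE 0.08, adjusted p 4.69e-13). SSE1, a nucleotide exchange factor of the Hsp70 chaperones, had 4298, 4672 and 4633 CPM in Cbp80-PrA tho2Δ and 2225, 2268 and 2349 CPM in no tag tho2Δ. Its log2 fold change of 0.99 (SE 0.08) was close to that of SUI3. CDC60, the cytosolic leucyl-tRNA synthetase gene, rose by 0.87 on the log2 scale (SE 0.09), with means of 2303 ± 99.4 CPM in Cbp80-PrA tho2Δ and 1259 ± 65.1 CPM in no tag tho2Δ (SD, n = 3 each). RPL5, a protein of the large ribosomal subunit that binds 5S rRNA, rose by 0.77 (SE 0.09), with means of 3730 ± 75.3 CPM in Cbp80-PrA tho2Δ and 2185 ± 173 CPM in no tag tho2Δ. The chaperone gene HSP82 (log2 fold change 0.71, SE 0.09), the ribosomal protein gene RPL1A (0.72, SE 0.10) and EGD1, a subunit of the nascent polypeptide-associated complex (0.75, SE 0.12), rose as well. RPS23B, a gene for a protein of the small ribosomal subunit, was the exception, with 1805, 2170 and 1766 CPM in Cbp80-PrA tho2Δ and 1181, 1687 and 862.5 CPM in no tag tho2Δ (log2 fold change 0.62, SE 0.24, adjusted p 0.119), and it passed the test without no tag tho2Δ replicate 2. HSP82, RPL1A and RPS23B each have a near-identical copy elsewhere in the genome, so the split of reads between copies is uncertain.

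Genes of protein complexes with members on several chromosomes were split by their location. Of the proteasome genes, RPN7, a lid subunit on chromosome XVI, had 1163, 1247 and 1186 CPM in Cbp80-PrA tho2Δ against 503.2, 577.1 and 530.8 CPM in no tag tho2Δ (log2 fold change 1.16, SE 0.09). The 2 proteasome genes of chromosome XVI had a median of 1.10 and the 30 on other chromosomes a median of 0.15. Among ribosomal protein genes, the 11 on chromosome XVI had a median of 0.62 and the 125 elsewhere a median of -0.28, where 1 of the 125 rose and 25 fell at any fold, beside 2.79% higher and 9.05% lower among all genes off chromosome XVI. The median of all 136 was -0.27 in tho2Δ and -0.20 in wild type. Translation factor genes had a median of 0.94 for 5 on chromosome XVI and of 0.00 for 23 elsewhere. NOP4, a ribosome biogenesis factor of the 60S subunit on chromosome XVI, had 1656, 1560 and 1785 CPM in Cbp80-PrA tho2Δ, against 700.0, 662.5 and 764.1 CPM in no tag tho2Δ (log2 fold change 1.24, SE 0.10). The levels of both RPN7 and NOP4 in every tagged library were above those of every library without the tag.

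The genes around the export pathway followed the same division. MEX67 (YPL169C), the mRNA export receptor gene on chromosome XVI, had 102.1, 120.2 and 114.1 CPM in Cbp80-PrA tho2Δ, against 55.7, 49.4 and 36.6 CPM in no tag tho2Δ, and was called higher (log2 fold change 1.22, SE 0.20, adjusted p 6.24e-06). CBC2, the partner of Cbp80 in the cap-binding complex and also on chromosome XVI, had 131.5, 148.1 and 145.9 CPM in Cbp80-PrA tho2Δ, against 71.4, 62.9 and 84.6 CPM in no tag tho2Δ. It rose by 0.96 (SE 0.18, adjusted p 8.7e-05), short of the 2-fold threshold. In wild type the CBC2 difference was 0.45 (SE 0.23, adjusted p 0.755), and the interaction did not pass (0.51, adjusted p 0.34). The 19 tested genes for cap binding, THO/TREX and export on other chromosomes had a median of -0.03. Of these, 0 rose and 2 fell at any fold, STO1 among them, beside 2.79% and 9.05% of all genes off chromosome XVI. SUB2, the TREX helicase gene on chromosome IV, averaged 1050 ± 30.7 CPM in Cbp80-PrA tho2Δ and 1005 ± 42.4 CPM in no tag tho2Δ (SD, n = 3 each), a log2 fold change of 0.06 (SE 0.09, adjusted p 0.73). MFT1, a THO subunit gene on chromosome XIII, averaged 334 ± 8.27 CPM in Cbp80-PrA tho2Δ and 292 ± 11.3 CPM in no tag tho2Δ, also short of the test (log2 fold change 0.20, SE 0.11, adjusted p 0.248). HPR1, another THO subunit gene, and NAB2, for a poly(A)-binding protein of export, had log2 fold changes of -0.03 (SE 0.14) and 0.01 (SE 0.13), did not pass, and changed sign under some alternatives.

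A few chromosome XVI genes rose by more than the rest. TDA6 (YPR157W), whose product has no assigned function, had 498.5, 485.0 and 426.1 CPM in Cbp80-PrA tho2Δ, against 121.9, 128.0 and 96.1 CPM in no tag tho2Δ. Its log2 fold change was 2.02 (SE 0.13, adjusted p 1.42e-15), and the no tag tho2Δ strain was itself above the no tag wild type mean of 43.8 CPM. PDR12, a plasma membrane transporter that exports weak organic acids, had 276.9, 248.9 and 226.5 CPM in Cbp80-PrA tho2Δ against 81.8, 71.9 and 89.2 CPM in no tag tho2Δ (log2 fold change 1.63, SE 0.16). The groups were far apart for both genes. SPO24 averaged 41.3 ± 5.50 CPM in Cbp80-PrA tho2Δ and 8.04 ± 5.05 CPM in no tag tho2Δ (log2 fold change 2.28, SE 0.40). YME1, a protease of the mitochondrial inner membrane, averaged 83.1 ± 24.1 CPM in Cbp80-PrA tho2Δ and 26.5 ± 3.67 CPM in no tag tho2Δ (log2 fold change 1.60, SE 0.27). SPT14, which encodes an enzyme of GPI anchor synthesis, averaged 54.0 ± 8.77 CPM in Cbp80-PrA tho2Δ and 15.97 ± 2.02 CPM in no tag tho2Δ (log2 fold change 1.76, SE 0.33). SET6, chosen after its values were seen, had 15, 13 and 12 counts in Cbp80-PrA tho2Δ and 2, 0 and 0 counts in no tag tho2Δ, a ratio of 17.8 with a 95% exact counting interval of 4.61 to 152. SET6 overlaps ATG29 on the opposite strand, and the strand setting of the counting is not given in the sources used here.

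At the other end, some chromosome XVI genes had log2 fold changes near 0. LSP1, a component of the membrane compartments called eisosomes, had 136.7, 135.2 and 125.8 CPM in Cbp80-PrA tho2Δ and 149.8, 119.0 and 141.8 CPM in no tag tho2Δ. NCE102, a membrane protein of the same compartments, had 129.8, 171.7 and 99.0 CPM in Cbp80-PrA tho2Δ and 142.8, 143.7 and 125.8 CPM in no tag tho2Δ. The groups overlapped for both, and neither passed the test (log2 fold changes -0.06 with SE 0.16, and -0.07 with SE 0.19). RPL7B, a ribosomal protein gene with a near-identical copy, was likewise at -0.04 (SE 0.22). GPH1, the glycogen phosphorylase gene, was the single chromosome XVI gene that fell at any fold and was read for that reason. It had 116.0, 98.7 and 115.7 CPM in Cbp80-PrA tho2Δ, against 210.7, 170.7 and 205.9 CPM in no tag tho2Δ (log2 fold change -0.83, SE 0.16, adjusted p 7.3e-05). GPH1 belongs to the list of general stress genes described below.

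Chromosome II differed in the other direction and by less. Its 361 tested genes, 7.53% of all, had a median log2 fold change of -0.29, with quartiles of -0.47 and -0.08, and 303 of them lay below 0. At any fold 96 (26.6%) fell and 2 (0.554%) rose, against 9.05% and 2.79% of all genes off chromosome XVI. The remaining 14 chromosomes had medians from -0.11 to -0.01, and on none of them did more than 11.1% of the genes fall. The 137 tested genes without a chromosome letter in their identifier, such as RNA and mitochondrial genes, had a median of -0.31. On chromosome II, 141 genes (39.1%) had all Cbp80-PrA tho2Δ libraries below all no tag tho2Δ libraries, against 16.7% of all genes. Both arms were displaced, by -0.28 over 99 genes on the left and by -0.29 over 262 genes on the right, and 8 steps of 100 kb with at least 29 genes had medians between -0.33 and -0.20. The medians of 4 sets by level lay between -0.31 and -0.28. Beyond HSP26, described below, the genes called lower on chromosome II were ICS2, AGP2, YBR284W, RRT1, OM14, VVS1 and SDS24, which were read because they were called.

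To place both chromosomes outside the pair, each library was set against the mean of the no tag wild type libraries, over genes that averaged 20 CPM or more. For 346 genes of chromosome II the median log2 ratio was -0.23, -0.25 and -0.35 in the Cbp80-PrA tho2Δ libraries, and between -0.04 and 0.02 in the other 12. For 362 genes of chromosome XVI it was 0.95, 0.91 and 0.94 in the Cbp80-PrA tho2Δ libraries, and between -0.02 and 0.05 in the other 12. On chromosome XVI the no tag tho2Δ libraries (-0.01 to 0.05) overlapped the 9 wild type libraries (-0.02 to 0.02). On chromosome II the no tag tho2Δ libraries (-0.04 to -0.02) were all slightly below the 9 wild type libraries (-0.01 to 0.02). The Cbp80-PrA tho2Δ libraries lay apart from both on either chromosome. Over the 14 other chromosomes and all 6 tho2Δ libraries the medians ran from -0.13 to 0.10. Chromosome II took 9.24%, 9.16% and 8.56% of gene counts in Cbp80-PrA tho2Δ, against 11.03%, 11.2% and 10.8% in no tag tho2Δ. The share was also taken without chromosome XVI. It was then 10.3% ± 0.426 (SD, n = 3) in Cbp80-PrA tho2Δ and 11.9% ± 0.200 (SD, n = 3) in no tag tho2Δ, and the 3 Cbp80-PrA tho2Δ libraries were still below the other 12 (two-sided exact permutation test, p 0.0022, 0.0055 adjusted over 15 chromosomes). Here too the 12 come from several strains, so the p describes a separation of libraries only. Chromosomes III, IV, XI, XIV and XV reached the same p with higher shares, so the test does not single out chromosome II. Among these 6 the ratio to the other 12 libraries was 0.841 for chromosome II and between 1.03 and 1.07 for the rest.

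The Yra1 pulldowns of the same strains, which are separate libraries, were read in the same way as a description. Against the mean of the Cbp80-PrA wild type pulldowns, the 3 Cbp80-PrA tho2Δ pulldowns had median log2 ratios of 0.57, 0.55 and 0.75 for chromosome XVI, where the median of the 14 other chromosomes was -0.22, -0.23 and -0.16. For chromosome II the ratios were -0.40, -0.50 and -0.45. The distance of chromosome XVI from the 14 others was therefore 0.79, 0.77 and 0.92 in the 3 pulldowns, and that of chromosome II -0.18, -0.27 and -0.29. The lowest of the 14 others had -0.40, -0.35 and -0.33, so in replicate 1 chromosome II was level with it.

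In wild type, where the same tag was compared with no tag, edgeR called 0 of 4792 genes at any fold (0%), and DESeq2 also called 0. At an unadjusted p under 0.05 there were 310 genes by edgeR and 141 by DESeq2. Chromosome medians of this comparison lay between -0.03 and 0.03. The interaction test asks whether the difference between the tagged and the untagged strain was itself different in tho2Δ. It found 255 genes (5.32%) with a higher and 205 genes (4.28%) with a lower difference in tho2Δ than in wild type. Chromosome XVI held 207 of the 255 and none of the 205, and chromosome II held 1 and 51.

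Outside chromosome XVI, 16 genes were called higher and 70 lower. The 70 consisted of 56 nuclear coding genes, 8 mitochondrially encoded genes and 6 genes of other kinds. Of the 70, 50 were higher and 2 lower in no tag tho2Δ than in no tag wild type. Of the 16, 0 were higher and 5 lower in that comparison. It uses the same no tag tho2Δ libraries as the comparison that chose these genes, so these counts are not independent of the choice. Of the 56 nuclear genes, 14 were on the list of general stress genes. At any fold, 2.79% of the 4411 genes tested off chromosome XVI were higher and 9.05% lower, with a median of -0.07. These shares depend in part on the scaling. With TMM factors computed without chromosome XVI genes, 174 were higher and 334 lower, in place of 123 and 399. To show the STRE, the element named above, in genes called lower from the general stress and heat shock lists, a stretch of each of 3 promoters is printed, 250 bases that begin 450 bases before the start codon, 5′ to 3′ on the strand of the gene (R64 genome), with the STRE core AGGGG or its reverse complement CCCCT in capitals. HSP12 is at chrVI:106806-107055, HSP26 at chrII:381580-381829 and CTT1 at chrVII:654184-654433, all on the plus strand.
HSP12: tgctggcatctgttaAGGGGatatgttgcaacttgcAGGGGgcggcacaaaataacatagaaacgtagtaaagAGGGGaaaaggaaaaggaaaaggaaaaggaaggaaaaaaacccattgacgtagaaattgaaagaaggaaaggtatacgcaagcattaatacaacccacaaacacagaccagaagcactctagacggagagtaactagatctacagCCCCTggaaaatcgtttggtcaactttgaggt
HSP26: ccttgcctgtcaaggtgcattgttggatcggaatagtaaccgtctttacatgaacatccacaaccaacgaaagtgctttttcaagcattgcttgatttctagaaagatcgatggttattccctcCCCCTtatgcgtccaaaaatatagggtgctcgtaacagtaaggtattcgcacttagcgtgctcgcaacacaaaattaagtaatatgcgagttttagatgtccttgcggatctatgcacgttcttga
CTT1: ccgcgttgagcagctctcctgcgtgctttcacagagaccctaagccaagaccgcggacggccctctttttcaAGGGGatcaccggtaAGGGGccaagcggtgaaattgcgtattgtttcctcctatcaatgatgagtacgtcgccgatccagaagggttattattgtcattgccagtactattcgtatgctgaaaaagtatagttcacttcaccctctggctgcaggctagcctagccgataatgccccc
The HSP12 stretch held 4 cores, the CTT1 stretch 2 and the HSP26 stretch 1. In the 500 bases before the start codon, on both strands, at least 1 core was present for 2040 of 5989 nuclear coding genes (34.1%) and at least 2 cores for 487 (8.13%). Of the 56 nuclear coding genes called lower outside chromosome XVI, 44 (78.6%) had at least 1 and 33 (58.9%) at least 2. Of the 14 called higher outside chromosome XVI, 2 had 1 core and 0 had 2. Such matches describe the letters and do not show that a factor was bound.

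HSP26 (YBR072W), a small heat shock protein that keeps unfolded proteins from aggregating, had 46.7, 64.4 and 36.9 CPM in Cbp80-PrA tho2Δ, against 310.0, 354.8 and 267.7 CPM in no tag tho2Δ. Its log2 fold change was -2.68 (SE 0.18, adjusted p 2.17e-15). The Cbp80-PrA tho2Δ mean of 49.3 CPM was near the no tag wild type mean of 36.2 CPM. HSP12 (YFL014W), a small membrane-associated stress protein, had 31.2, 36.5 and 30.2 CPM in Cbp80-PrA tho2Δ, against 205.5, 172.9 and 167.0 CPM in no tag tho2Δ (log2 fold change -2.49, SE 0.22, adjusted p 3.07e-12). For HSP12 the Cbp80-PrA tho2Δ libraries stayed above wild type, where no library passed 6.1 CPM. CTT1, the cytosolic catalase, had 19.0, 19.3 and 10.1 CPM in Cbp80-PrA tho2Δ against 64.4, 78.6 and 59.5 CPM in no tag tho2Δ (log2 fold change -2.07, SE 0.29). GAD1, glutamate decarboxylase, had 77.9, 73.0 and 47.0 CPM in Cbp80-PrA tho2Δ, against 297.8, 309.9 and 231.1 CPM in no tag tho2Δ (log2 fold change -2.10, SE 0.19). The groups were apart by a wide margin for all 4 genes.

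As a list, 27 of 30 general stress genes were tested, and 14 were called lower, 21 fell at any fold and 0 rose. Among all genes tested 1.46% were called lower, and 8.35% fell and 9.12% rose at any fold. List members were chosen with earlier results of these data known, so the counts are not an independent test. The median log2 fold change of the 27 was -1.10, beside -0.03 for all genes. Summed over the list, the level was between 2550 and 2581 CPM in the Cbp80-PrA tho2Δ libraries, between 4872 and 5160 CPM in the no tag tho2Δ libraries and between 1566 and 2028 CPM in the Cbp80-PrA and no tag wild type libraries. PGM2, the phosphoglucomutase of storage carbohydrate synthesis, had 41.5, 34.3 and 30.2 CPM in Cbp80-PrA tho2Δ against 155.0, 130.3 and 130.4 CPM in no tag tho2Δ (log2 fold change -1.97, SE 0.22). HXK1, a hexokinase, had 252.7, 261.8 and 246.6 CPM in Cbp80-PrA tho2Δ against 559.0, 509.8 and 562.8 CPM in no tag tho2Δ (log2 fold change -1.10, SE 0.14). The 9 wild type libraries had HXK1 levels of at most 112.9 CPM, so the Cbp80-PrA tho2Δ libraries lay between those of no tag tho2Δ and wild type.

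**Figure D4:**
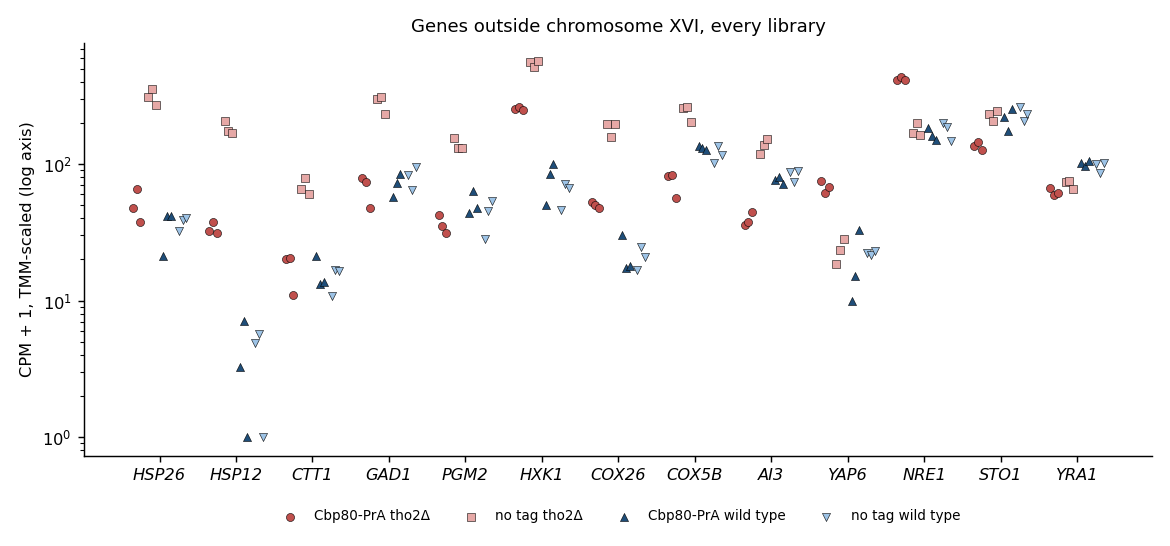
TMM-scaled CPM plus 1 on a log axis (vertical) of 13 genes outside chromosome XVI (horizontal) in each Cbp80-PrA tho2Δ, no tag tho2Δ, Cbp80-PrA wild type and no tag wild type library. HSP26 is between 36.9 and 64.4 CPM in Cbp80-PrA tho2Δ and between 267.7 and 354.8 CPM in no tag tho2Δ, NRE1 is higher in Cbp80-PrA tho2Δ, and YRA1 differs little.

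Heat shock genes and chaperones were less uniform. Of 30 tested, 4 were called lower, 11 fell and 3 rose at any fold, beside 1.46%, 8.35% and 9.12% of all genes tested. The median was -0.16, and the 3 on chromosome XVI had a median of 0.71. SSA4, an Hsp70 made under stress, had 225.0, 285.4 and 276.8 CPM in Cbp80-PrA tho2Δ, against 618.2, 646.8 and 672.6 CPM in no tag tho2Δ (log2 fold change -1.30, SE 0.12, adjusted p 5.61e-12). The tagged strain was lower in every library, and above the no tag wild type mean of 162 CPM.

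Mitochondrially encoded genes and part of the nuclear genes of respiration were lower. The 12 tested mitochondrially encoded genes had a median log2 fold change of -1.21. Of these, 8 were called lower and 11 were lower at any fold, beside 1.46% and 8.35% of all genes tested. Some of these reading frames overlap on the same strand, as AI3 and AI5_ALPHA do, so the 12 are not all separate transcripts. Together all genes encoded in mitochondria took 1.40%, 1.72% and 1.504% of gene counts in Cbp80-PrA tho2Δ, against 2.69%, 2.69% and 2.54% in no tag tho2Δ, and between 1.32% and 1.70% in the 9 wild type libraries. The no tag tho2Δ libraries were therefore the high ones. AI3, an open reading frame within an intron of the COX1 transcript, had 34.6, 36.5 and 43.6 CPM in Cbp80-PrA tho2Δ and 116.7, 137.0 and 151.0 CPM in no tag tho2Δ (log2 fold change -1.79, SE 0.19). It overlaps COX1 and other reading frames on the same strand, so its reads cannot be told apart from theirs with certainty. Of 28 tested nuclear genes of oxidative phosphorylation 10 fell and 2 rose at any fold, beside 8.35% and 9.12% of all genes tested. Summed over the list, the level was 5183 to 5645 CPM in Cbp80-PrA tho2Δ and 6869 to 7465 CPM in no tag tho2Δ. In no tag wild type it was 4050 to 4325 CPM. The median log2 fold change was -0.53, and 1 was called. That 1 was COX5B, a subunit of cytochrome c oxidase used when oxygen is low, with 81.3, 81.5 and 55.4 CPM in Cbp80-PrA tho2Δ against 254.2, 260.5 and 201.3 CPM in no tag tho2Δ (log2 fold change -1.73, SE 0.17). For COX5B the no tag wild type mean was 117 CPM, above the Cbp80-PrA tho2Δ libraries. COX26, a small protein found with the respiratory supercomplexes, had 51.9, 49.4 and 47.0 CPM in Cbp80-PrA tho2Δ against 196.8, 157.2 and 194.5 CPM in no tag tho2Δ (log2 fold change -1.89, SE 0.18). For COX26 the no tag wild type mean was 19.7 CPM, below both tho2Δ strains. INH1, an inhibitor of the mitochondrial ATP synthase when it runs in reverse, was also called lower (log2 fold change -1.99, SE 0.45).

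WSC4 and PHO84 also fell, and in both tho2Δ strains they were below wild type. WSC4, a sensor-like protein of the cell surface, had 8.7, 15.02 and 21.8 CPM in Cbp80-PrA tho2Δ, against 54.0, 60.6 and 66.3 CPM in no tag tho2Δ (log2 fold change -1.96, SE 0.29), where wild type libraries with and without the Cbp80 tag lay between 79.1 and 121.0 CPM. PHO84, the high-affinity phosphate transporter, had 0, 0 and 0 counts in Cbp80-PrA tho2Δ and 12, 3 and 0 counts in no tag tho2Δ, against a no tag wild type mean of 170 CPM. With a floor of 3 counts over the Cbp80-PrA tho2Δ group, summed PHO84 counts were 5.63-fold lower there than in no tag tho2Δ. That pooled ratio leaves out the spread between libraries, and 12 of the no tag tho2Δ counts came from replicate 1. The call of PHO84 was lost without no tag tho2Δ replicate 1 (adjusted p 0.101), and PHO84 overlaps an annotated RNA on the opposite strand. Of the 16 phosphate starvation genes tested, PHO84 was the only one lower at any fold, and 3 were higher, 0 of them off chromosome XVI. Among all genes tested 8.35% were lower and 9.12% higher. The list had a median of -0.13, with 9 genes below 0.

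Among genes that rose outside chromosome XVI, YAP6, a leucine zipper transcription factor, had 74.4, 60.1 and 67.1 CPM in Cbp80-PrA tho2Δ, against 17.4, 22.5 and 27.5 CPM in no tag tho2Δ (log2 fold change 1.61, SE 0.29, adjusted p 3.23e-05). NRE1, a gene near the right end of chromosome IX, had 413.7, 429.2 and 412.7 CPM in Cbp80-PrA tho2Δ against 168.9, 199.9 and 162.4 CPM in no tag tho2Δ (log2 fold change 1.24, SE 0.12). Wild type levels of both genes were close to those of no tag tho2Δ, with no tag wild type means of 21.3 CPM for YAP6 and 177 CPM for NRE1. CHA1, the catabolic serine and threonine deaminase, averaged 232 ± 47.1 CPM in Cbp80-PrA tho2Δ and 110.0 ± 17.1 CPM in no tag tho2Δ (log2 fold change 1.09, SE 0.19). BNA7, an enzyme of NAD synthesis, averaged 69.8 ± 10.3 CPM in Cbp80-PrA tho2Δ and 32.4 ± 8.31 CPM in no tag tho2Δ (log2 fold change 1.06, SE 0.24). No tag tho2Δ was itself lower than no tag wild type for CHA1 (wild type mean 208 CPM, edgeR adjusted p 0.000786) and for BNA7 (wild type mean 93.7 CPM, adjusted p 1.34e-06). Both tests share the no tag tho2Δ libraries with the comparison that chose these genes. RDS1 was also called higher, at a log2 fold change of 1.5005 (SE 0.41). The GIP1 log2 fold change was 1.43 (SE 0.38), and the ENB1 log2 fold change was 1.15 (SE 0.31), ENB1 being a transporter of the siderophore enterobactin. The call of GIP1 was lost without Cbp80-PrA tho2Δ replicate 1 (adjusted p 0.0538) and that of ENB1 without no tag tho2Δ replicate 2 (adjusted p 0.0613). With single libraries left out, the log2 fold changes of CHA1 and BNA7 fell as low as 0.94 and 0.87, under the threshold of 1.

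**Figure D5:**
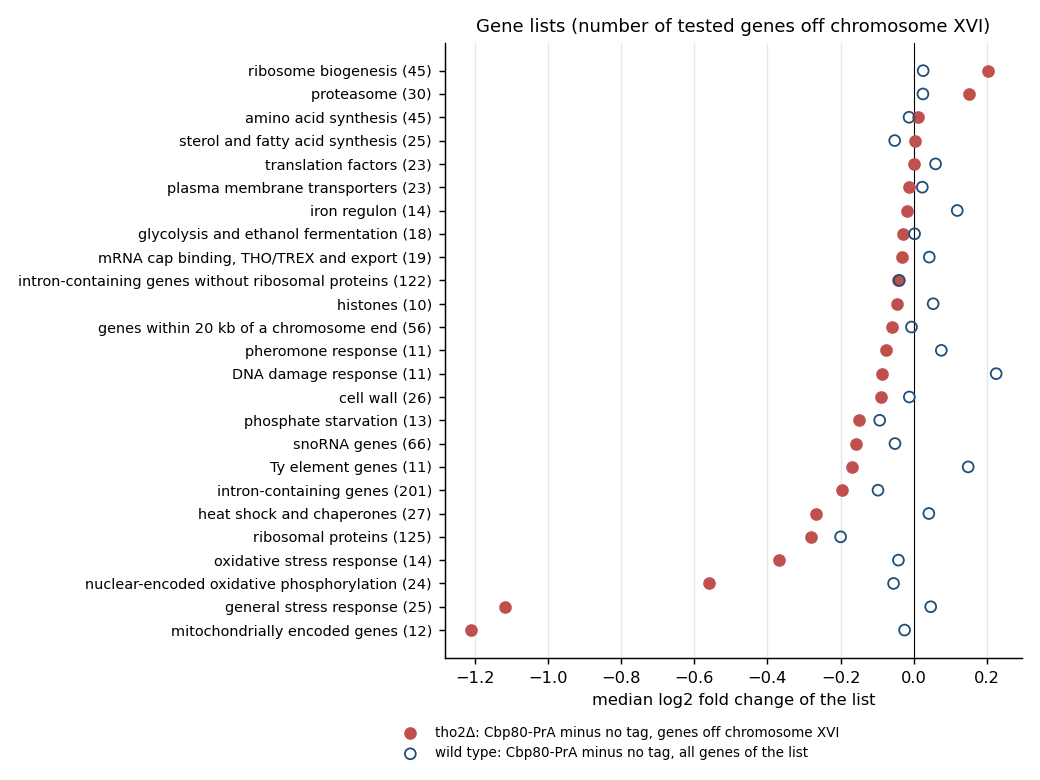
Median log2 fold change (horizontal axis) of each gene list (vertical axis, number of tested genes off chromosome XVI in brackets), Cbp80-PrA minus no tag, in tho2Δ off chromosome XVI (filled) and in wild type over the whole list (open). General stress genes and mitochondrially encoded genes stand lowest in tho2Δ, at -1.12 and -1.21, and ribosome biogenesis stands highest, at 0.20.

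By their medians the other lists moved less than the general stress and mitochondrially encoded genes. Their counts off chromosome XVI stand beside 2.79% higher and 9.05% lower for all genes there. Off chromosome XVI, ribosome biogenesis genes had a median of 0.20, with 13 of 45 higher and 1 lower at any fold and 0 called. The count over the whole list, 17 of 49, was 9 without no tag tho2Δ replicate 1, 10 without no tag tho2Δ replicate 2 and 8 without Cbp80-PrA tho2Δ replicate 3. Proteasome genes off chromosome XVI had a median of 0.15, with 4 of 30 higher and 0 lower. Lists for amino acid synthesis, sterol and fatty acid synthesis, plasma membrane transport, the cell wall, histones and intron-containing genes other than those for ribosomal proteins had medians within 0.1 of 0 off chromosome XVI. Even so, 6 of 23 plasma membrane transport genes and 5 of 26 cell wall genes there were lower at any fold, and 1 and 2 were higher. Lower counts were 3 of 45 for amino acid synthesis and 3 of 25 for sterol and fatty acid synthesis. They were 0 of 10 for histones and 9 of 122 for the intron-containing genes. Small nucleolar RNA genes had a median of -0.16, with 2 of 66 (3.03%) higher and 8 (12.1%) lower at any fold, near those shares. Glycolysis and fermentation genes had a median of -0.03, with 3 of 18 called lower, beside 1.59% called lower among all genes off chromosome XVI. Oxidative stress genes had a median of -0.34, with 4 of 15 lower at any fold. Lists for the iron regulon, the pheromone response, DNA damage and genes near chromosome ends (20 kb or less) had medians of 0.01, -0.02, -0.09 and -0.05, and Ty element genes a median of -0.17. Of 56 genes near chromosome ends off chromosome XVI, 5 were called higher and 3 lower, beside 0.363% and 1.59% of all genes there.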

How the data were processed

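Per the labels and the study's methods, 3′-end tag libraries (QuantSeq) with molecular identifiers were made from total RNA. The authors trimmed reads with bbduk, removed rRNA reads with bbsplit, aligned them to R64 with STAR 2.7.10a, removed duplicate identifiers with UMI-tools 1.0.1 and counted genes with HTSeq 2.0.2 (intersection-nonempty), and the deposited raw counts per gene, summed over sequencers, were used as they stand. The strand setting is not given in the sources used here. A deposited table of normalized counts was not used. Summary lines, 48.4% to 54.0% of the reads per library, were left out, and 3 lines of the table were not analysed here. Of 6461 genes, 6458 matched the RefSeq annotation.

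Counts were fitted with edgeR 4.0.16 (R 4.3.3; TMM factors, filter on low counts, quasi-likelihood F test, 15 total RNA libraries, 1 coefficient per strain), and p-values were adjusted by Benjamini-Hochberg over 4792 genes. SEs were derived from the F statistics. The biological coefficient of variation was 0.0867. DESeq2 1.42.0 served as an alternative, beside other scalings, no filter, a replicate block, a sequencer term and leaving out each library. The scripts were tested on simulated data. Replicates are biological per the study, and p-values measure the spread between them. Same-numbered libraries of the strains had correlated deviations of 0.00, 0.09 and 0.15, so the numbers were not taken to pair them. Named genes were part of those chosen by rule. On chromosome XVI these were the 8 called coding genes with the largest fold change, the 8 most abundant and the 4 nearest 0 with at least 100 CPM. Elsewhere they were the 10 highest and the 10 lowest called coding genes. The called genes averaged at least 20 CPM with strains that did not overlap. Up to 3 called members of each list and direction, the tag and deletion targets, markers and genes of export were added. The members and lists were chosen with earlier results of these data known.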

Additional observations from a re-analysis of the deposited data

Results flagged for a closer look

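The difference between the tagged and the untagged strain was itself tested between tho2Δ and wild type (edgeR interaction, adjusted p under 0.05), and 255 genes had a higher and 205 a lower difference in tho2Δ. Among the named genes of chromosome XVI, the interaction on the log2 scale was positive for SPO24 (2.22), TDA6 (1.73), SPT14 (1.88), PDR12 (1.77), YME1 (1.3797), SUI3 (1.06), SSE1 (0.96), RPL5 (0.95), CDC60 (0.70), MEX67 (0.94), RPN7 (1.14), NOP4 (1.22), HSP82 (0.65), RPL1A (0.82) and EGD1 (0.99). Off chromosome XVI it was positive for YAP6 (1.81), NRE1 (1.36), BNA7 (1.30) and CHA1 (0.93), and negative for HSP26 (-2.59), CTT1 (-2.18), GAD1 (-1.94), PGM2 (-2.28), HXK1 (-1.45), COX26 (-1.93), COX5B (-1.86), SSA4 (-1.44), AI3 (-1.68), WSC4 (-1.52) and STO1 (-0.66). SET6 (3.44) and PHO84 (-5.48) passed as well, but both rest on counts near 0 and their sizes depend on the prior count.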

How the results depend on the processing

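The median log2 fold change of chromosome XVI was between 0.87 and 0.88 when single libraries were left out, and 0.92 with TMM factors computed without its genes. That scaling moved the median over all genes to 0.01. Off chromosome XVI it gave 174 genes higher and 334 lower at any fold, in place of 123 and 399. On chromosome II it gave 79 lower in place of 96, with a median of -0.25. With DESeq2, 261 genes were lower at any fold in tho2Δ, and the interaction had 166 higher and 112 lower genes. With only libraries run on both sequencers, the interaction had 132 lower genes. The replicate block gave 1 higher and 1 lower gene at any fold in wild type, and changed no count for tho2Δ by over 1.5 times. In wild type, leaving out single libraries gave between 0 and 1 genes called lower, between 0 and 1 higher at any fold and between 0 and 5 lower at any fold, the highest of each without Cbp80-PrA replicate 2. LSP1 ranged from -0.15 to 0.022 on the log2 scale, NCE102 from -0.28 to 0.11 over the left-out libraries, HPR1 from -0.11 to 0.064, NAB2 from -0.11 to 0.12 and RPL7B from -0.18 to 0.047, so none of the 5 has a stable sign. HPR1 was also at 0.011 and RPL7B at 0.0067 with TMM factors without chromosome XVI genes, and HPR1 at 0.089 with only libraries run on both sequencers. PHO84 was no longer called without no tag tho2Δ replicate 1 (adjusted p 0.101), ENB1 without no tag tho2Δ replicate 2, nor GIP1 without Cbp80-PrA tho2Δ replicate 1 or with only libraries run on both sequencers (adjusted p 0.155). RPS23B passed without no tag tho2Δ replicate 2 (adjusted p 0.0202). Of 748 results for 50 genes under the alternatives, 731 kept their direction and their side of the adjusted p of 0.05. A further 12 changed sign, 4 lost and 1 gained an adjusted p under 0.05. This count leaves the fold threshold out. Over the left-out libraries the log2 fold change of called genes reached 0.87 (BNA7), 0.88 (ENB1), 0.94 (CHA1) and 0.95 (SUI3). That of genes not called reached 1.03 (SSE1) and 1.05 (CBC2). Genes with a few counts per library, such as SET6 and PHO84, are limited by depth.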
